A study of Homo sapiens with 8 samples.

Results

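Chromatin that was accessible after 6 h of TGFβ1 was compared with chromatin accessible after 24 h, without reference to the solvent control, to find the regions and genes that opened or closed in the second stage of the response. The 107656 peaks listed at 6 h and the 118433 peaks listed at 24 h were merged wherever they shared 1 bp or more, which gave 120946 regions. Merging all 4 lists of the series gave 126658. Of the 120946 regions, 102281 (84.6%) held a peak at both times, 14172 held a peak at 24 h alone and 4493 at 6 h alone.

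The material is the MCF10A line, spontaneously immortalised breast epithelial cells that form no tumours. All cells were seeded together, grown in medium with EGF, insulin, hydrocortisone, cholera toxin and horse serum, and harvested together. TGFβ1 was given at 5 ng/ml for 6, 24 or 72 h. The control received solvent. The labels put it at time 0 and a legend of the study at 72 h. Each of the 4 conditions had 2 replicate libraries, 8 in all, and the authors called a single peak list a condition on both replicates together. Replicate error is therefore not known for any difference below, and none was tested. The lists hold no reads, so depth is unknown.

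ATAC-seq cuts DNA with a transposase that reaches stretches free of nucleosomes, so a peak marks an accessible promoter or a distal element such as an enhancer. TGFβ1 binds a pair of receptor kinases that phosphorylate SMAD2 and SMAD3, which enter the nucleus with SMAD4 and bind DNA beside other factors, AP-1 (dimers of FOS and JUN proteins) and RUNX among them. In breast epithelium the cytokine halts growth and drives an epithelial-mesenchymal transition (EMT), in which cells lose junctions and keratins, raise matrix proteins and proteases, and employ the repressors SNAIL and ZEB, which bind an E-box.

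The sequences of 11 regions are shown, chosen from the named regions below because their peak centres hold, or lack, the motif letters on which the comparison of opened with closed regions turned. Each spans the summit of the stronger peak and 50 bases to either side on the plus strand of GRCh38. Capitals mark a motif searched on both strands: TGACTCA for AP-1, GTCTAGAC for the SMAD palindrome, TGTGGTTT for RUNX, CACCTG for the SNAIL and ZEB E-box, ACATTCC for TEAD, AACCTGTT for a GRHL variant and GCCNNNGGC for TFAP2. The opened regions lie at chr17:27586254-27586354 (an intron of KSR1), chr3:195886410-195886510 (an intron of TNK2), chr2:200171790-200171890 (intergenic, nearest coding gene SPATS2L), chr13:109874972-109875072 (intergenic, IRS2), chr1:235019719-235019819 (intergenic, TOMM20) and chr4:117325372-117325472 (intronic, TRAM1L1).
KSR1: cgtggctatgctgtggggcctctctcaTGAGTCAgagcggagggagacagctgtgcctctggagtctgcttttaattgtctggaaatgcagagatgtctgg
TNK2: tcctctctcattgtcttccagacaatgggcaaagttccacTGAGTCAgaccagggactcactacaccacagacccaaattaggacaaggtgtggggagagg
SPATS2L: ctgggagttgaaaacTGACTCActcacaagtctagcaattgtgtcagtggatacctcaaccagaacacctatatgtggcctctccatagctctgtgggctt
IRS2: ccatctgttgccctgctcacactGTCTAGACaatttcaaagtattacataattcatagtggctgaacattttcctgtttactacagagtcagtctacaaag
TOMM20: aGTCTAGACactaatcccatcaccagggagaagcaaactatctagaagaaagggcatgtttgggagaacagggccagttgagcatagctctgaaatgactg
TRAM1L1: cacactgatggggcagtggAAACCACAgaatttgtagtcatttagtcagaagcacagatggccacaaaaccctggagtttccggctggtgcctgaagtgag

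The closed regions lie at chr14:105468624-105468724 (an intron of MTA1), chr20:25235017-25235117 (intergenic, nearest coding gene ENTPD6), chr5:2780505-2780605 (intergenic, IRX2) and chr15:75531164-75531264 (an intron of PTPN9). The last sequence, at chr14:75283711-75283811 downstream of FOS, is the centre of the strongest region with a peak at 6 h alone and holds none of these letters. Over all regions, windows of this length held the AP-1 letters in 24.2%, the SMAD palindrome in 0.240%, RUNX in 1.37%, the E-box in 10.1%, TEAD in 2.57%, the GRHL variant in 0.253% and TFAP2 in 6.10%. Of the named regions, 3 of 10 proximal and 1 of 10 distal opened ones held the AP-1 letters and none the E-box, while 3 of 10 proximal and 5 of 10 distal closed ones held the E-box and none the AP-1 letters.
MTA1: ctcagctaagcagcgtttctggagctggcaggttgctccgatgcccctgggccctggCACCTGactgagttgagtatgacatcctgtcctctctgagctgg
ENTPD6: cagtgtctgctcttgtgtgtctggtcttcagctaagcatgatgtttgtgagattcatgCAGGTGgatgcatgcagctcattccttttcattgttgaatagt
IRX2: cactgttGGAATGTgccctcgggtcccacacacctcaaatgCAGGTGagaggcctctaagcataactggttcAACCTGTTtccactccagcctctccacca
PTPN9: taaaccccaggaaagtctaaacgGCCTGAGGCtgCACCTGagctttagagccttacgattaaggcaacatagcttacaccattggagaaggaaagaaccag
FOS: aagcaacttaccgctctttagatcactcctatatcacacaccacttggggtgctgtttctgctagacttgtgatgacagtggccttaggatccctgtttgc

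The strength of a peak is the AUC the authors deposited, the area under the significance curve of a peak, which grows with depth and width. The 6 h and 24 h lists were close in covered sequence (58.4 and 60.4 Mb) and in mean AUC per covered base (2.77 and 2.74), and the median AUC of a peak was 829 and 808. The AUC was summed per region and list, and log2(24 h/6 h) was centred on the median of shared regions within 3 kb of a transcription start site (TSS), a raw log2 of -0.04. A shared region was called opened where it rose 2-fold or more after centring and closed where it fell as much. All AUCs below are as deposited, and all ratios are centred. By the median ratio of shared proximal regions, the solvent list stood at 0.74 of the 6 h list and the 72 h list at 0.89. Deposited solvent AUCs are thus low beside those of the other lists. As a check of the cells, all 6 markers of basal mammary epithelium (KRT5, KRT14, KRT17, TP63, ITGB4 and LAMB3) and all 4 general epithelial markers held a peak over a TSS at both times, as did FOXA1 and ESR1 of the luminal hormone receptor markers, PTPRC of blood and PECAM1 of endothelium. PGR, CD3E and CDH5 held none.

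Opening dominated the step. Of the shared regions, 3129 opened, 3.06% of 102281, and 363 closed, 0.355%. Peaks at 24 h alone made up 11.7% of merged regions, and peaks at 6 h alone 3.71%. The excess of opening depended on the scaling: with the ratio centred within 50 bins of mean AUC, 1539 regions opened and 902 closed, so that opened regions made up 63.0% of calls in place of 89.6%. It also depended on the lengths of the lists, since with the 24 h list cut to its 107656 peaks of largest AUC, 7930 regions were at 24 h alone and 8700 at 6 h alone.

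Most of the shared chromatin hardly moved. The central 50% of shared regions lay between -0.08 and 0.31 in log2(24 h/6 h), and 90% between -0.39 and 0.84. The spread depended on peak strength: its SD was 0.35 over the 12172 weakest regions, with a larger AUC under 400, 0.48 over the 38542 from 400 to 1000, and 0.10 over the 5902 of 5000 or more. The medians of these strength classes were 0.11, 0.19 and -0.05. The opened regions were weak ones, with a median AUC of 290 at 6 h and 707 at 24 h, and the closed regions fell from 695 to 278. Of the opened regions, 646 had a larger AUC of at least 1000, as had 70 of the closed. At the limit itself, the least opened region had a log2 of 1.000007 and the next below it 0.999968, and 1169 regions lay within 0.1 below the limit. The least closed region had -1.001819 and the next outside -0.999383, with 199 regions within 0.1. Regions in a single list were weaker still, with median AUCs of 279 at 24 h and 249 at 6 h, and 27 and 4 of them reached 1000. Within 500 bp of a peak of the other list lay 9.57% of the 24 h regions and 25.2% of the 6 h regions.

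**Figure D1:**
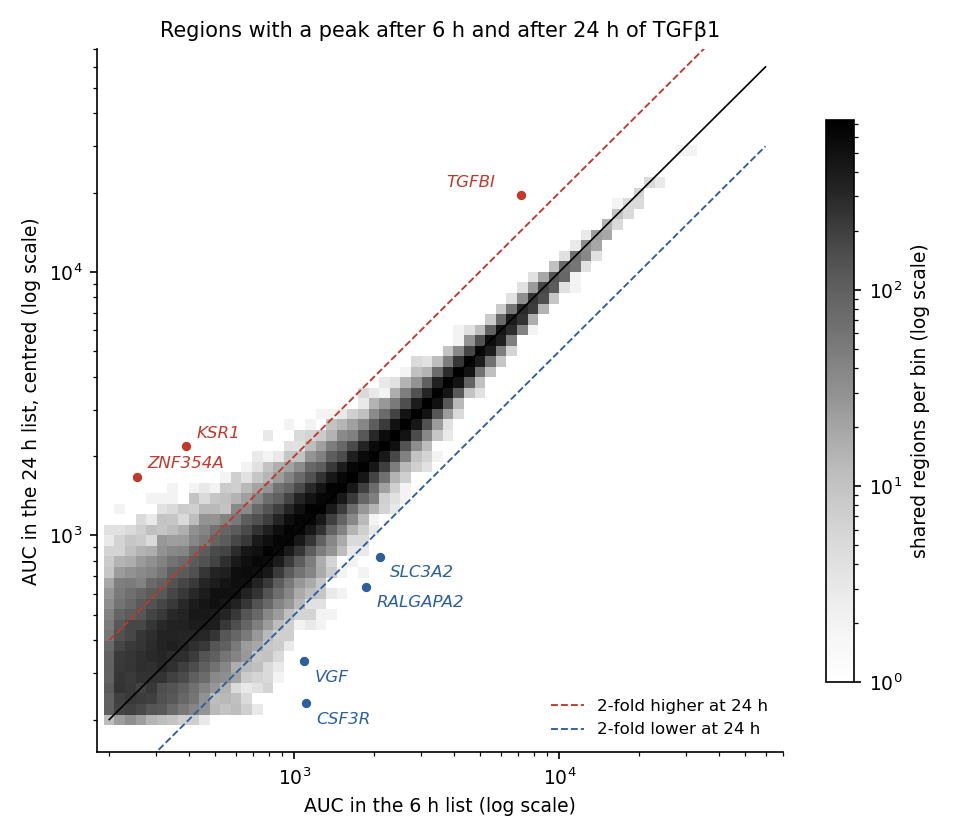
AUC of the 102281 shared regions in the 6 h list (x, log scale) and, after centring, in the 24 h list (y, log scale), shaded by the number of regions per bin on a log scale. The solid line marks equality, the dashed lines 2-fold changes. Weak regions scatter above the upper line far more often (3129) than below the lower line (363), and the TGFBI region stands apart among the strong ones.

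Distance from promoters separated the opened regions from the rest. Of the opened regions, 81.0% (95% Wilson interval 79.5 to 82.3) were distal, that is, no part of them lay within 3 kb of a TSS, against 62.4% of the 98789 regions that neither opened nor closed, called steady here, and 63.6% of the closed ones. These intervals, as all others here, cover counting error only. The median opened region was 13.5 kb from the nearest TSS, the steady 6.41 kb and the closed 6.2 kb. Of the opened regions 58.7% were intronic and 36.3% intergenic. Over all 64413 distal shared regions the median log2 was 0.13, with 68.1% above 0, while the 37868 proximal regions define 0.

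The rise with distance was stepwise. Regions over a TSS had a median of -0.04, and 0.511% of them opened. Those from 3 to 10 kb had a median of 0.11 with 3.25% opened, those from 30 to 100 kb 0.17 with 4.70%, and those from 100 to 300 kb 0.22 with 6.70%. Closed regions stayed between 0.193% and 0.481% in all classes up to 300 kb. Strength moved with distance as well. The median larger AUC was 3221 over a TSS and 802 within 1 kb of it. It was 883 from 10 to 30 kb, 866 from 30 to 100 kb, 813 from 100 to 300 kb and 725 beyond. Centred within bins of mean AUC, the gap between distal and proximal medians was 0.05 in place of 0.13, and with the AUC per covered base it was 0.09.

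Among the 10 promoter regions of the largest opening with a larger AUC of at least 1000, KSR1 came near the top, an intronic region 456 bp from a TSS of this scaffold of the RAF, MEK and ERK cascade, with an AUC of 390 at 6 h and 2119 at 24 h (log2 2.49). An intron of TMIGD3 rose from 219 to 1200 (2.50). LAD1, which encodes ladinin, a protein of basement membrane anchoring filaments, rose from 317 to 1261 (2.04). These 3 regions had no peak in the solvent list, and at 72 h their AUCs were 2253, 1258 and 1635. A region over a non-coding exon at ACMSD, an enzyme of tryptophan breakdown, rose from 267 to 1065 (2.04). BPGM, bisphosphoglycerate mutase, rose from 331 to 1277 (1.99). TNK2, a non-receptor tyrosine kinase, rose from 277 to 1056 (1.97), and CLEC16A, which acts in mitophagy, from 548 to 2048 (1.94). The other 3 opened regions lay by the TSS of unnamed genes, with HTR1B, LRRC4C and CYFIP2 as the nearest coding genes. All 10 were absent from the solvent list and present at 72 h.

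The promoter regions that closed were listed in the solvent as well, all 10 of them. VGF, a secreted neuroendocrine protein, lost part of a region over its coding exon (chr7:101163377-101164057), whose AUC stood at 957 in solvent and 1088 at 6 h, fell to 324 by 24 h (log2 -1.70) and was 693 by 72 h. The loss there was largest at 24 h. MTA1, a subunit of the NuRD chromatin remodeller, fell from 1180 to 366 in an intron 301 bp from a TSS (-1.64) and had no peak at 72 h. DENND1C, an exchange factor for a RAB GTPase, fell from 1331 to 410 (-1.66). A region at LINC01985, whose nearest coding gene is the receptor TGFBR2 at a distance of 88169 bp, fell from 1460 to 451 (-1.65) and stood at 1912 in the solvent. ZNF608 (-1.53), GGNBP2 (-1.36) and ZBTB7C (-1.36) also closed, the last from 1815 to 688 and on to 259 at 72 h. In a region near SLC3A2, a chain of amino acid transporters, the AUC fell from 2094 to 806 (-1.34) and was 1534 by 72 h. The remaining 2 were nearest to FBXL16 (-1.39) and LETMD1 (-1.31).

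Distal openings were larger in fold. The region of the highest ratio was intergenic, 134041 bp from SPATS2L, and rose from 201.4, near the authors' minimum of 200, to 1314 (log2 2.75). A region 10452 bp from ZNF354A, a zinc finger gene, rose from 254 to 1622 (2.72), and an intronic region 239846 bp from TRAM1L1 from 317 to 1973 (2.68). All 3 were stronger still at 72 h, at 1515, 1806 and 3260. Others lay nearest to NOCT, a circadian phosphatase (2.54), CD200, an inhibitory ligand for myeloid cells (2.53), IRS2, the insulin receptor substrate (2.51), the LIM protein LMCD1 (2.395) and TOMM20, a receptor of mitochondrial import (2.39). Of the 10 distal openings, 2 of which are not named, the CD200 region alone was listed in the solvent, at an AUC of 212. Such genes are the nearest on the map, 239846 bp away for TRAM1L1, and no link between region and gene was measured.

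Distal closings were smaller in fold. Their higher 6 h levels follow from the choice of regions with a larger AUC of at least 1000. A closed region had to start at that level, an opened one only to end there. A region 10436 bp from ENTPD6, an ectonucleotidase, fell from 1082 to 209 (log2 -2.33). A region 3907 bp from CSF3R, the receptor of G-CSF, fell from 1107 to 225 (-2.26). The IRX2 region, beside a homeobox gene, fell from 1686 to 534 (-1.62) and on to 322 at 72 h. RALGAPA2 (-1.54), the phosphatase PTPN9 (-1.46), GPR37L1 (-1.40), the receptor kinase GRK3 (-1.38), the DNA sensor CGAS (-1.37), EXT1 (-1.89) and CLXN (-1.50) named the rest. All 10 were in the solvent list, with AUCs from 726 to 2319, and 7 were still listed at 72 h.

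Among regions with a peak at 24 h alone, the strongest lay in the gene PLAU, which encodes urokinase, a protease that activates plasminogen. This peak covered a coding exon at chr10:73912629-73914837, 454 bp from the nearest 6 h peak, with an AUC of 2180 at 24 h and 2622 at 72 h. A region nearest to RAB4A had 2034, and an intron of TGFBI (chr5:136043552-136044675) 1704. TGFBI encodes a matrix protein that binds integrins and collagen and is named for its induction by TGFβ. Beyond the TGFBI gene, a peak near VTRNA2-1 had 1483, 488 bp from a 6 h peak. Regions nearest to CDK8 (1469), PLD5 (1417), NSUN3 (1252) and CDH10 (1193) completed the 8. None of the 8 was in the solvent list and all were at 72 h.

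Of the regions with a peak at 6 h alone, the strongest lay just downstream of FOS, the AP-1 subunit and immediate early gene. It spanned chr14:75282683-75284458, with an AUC of 2158 in the solvent and 2951 at 6 h and no peak at 24 or 72 h, and was 977 bp from the nearest 24 h peak. Next came a region nearest to TBC1D1, a RAB GTPase activating protein, with 1260 at 6 h, 1349 in the solvent and 281 at 72 h. The third lay nearest to the homeobox gene IRX3, with 1188 at 6 h and 489 in the solvent. An intron of RPS6KA2, an ERK-activated kinase, had 1085. GGCX, the vitamin K-dependent carboxylase, had 948 at 6 h and 1725 in the solvent. JRK (887), HS6ST1 (862) and FOXB1 (857) made up the 8, and all 8 were in the solvent list.

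**Figure D2:**
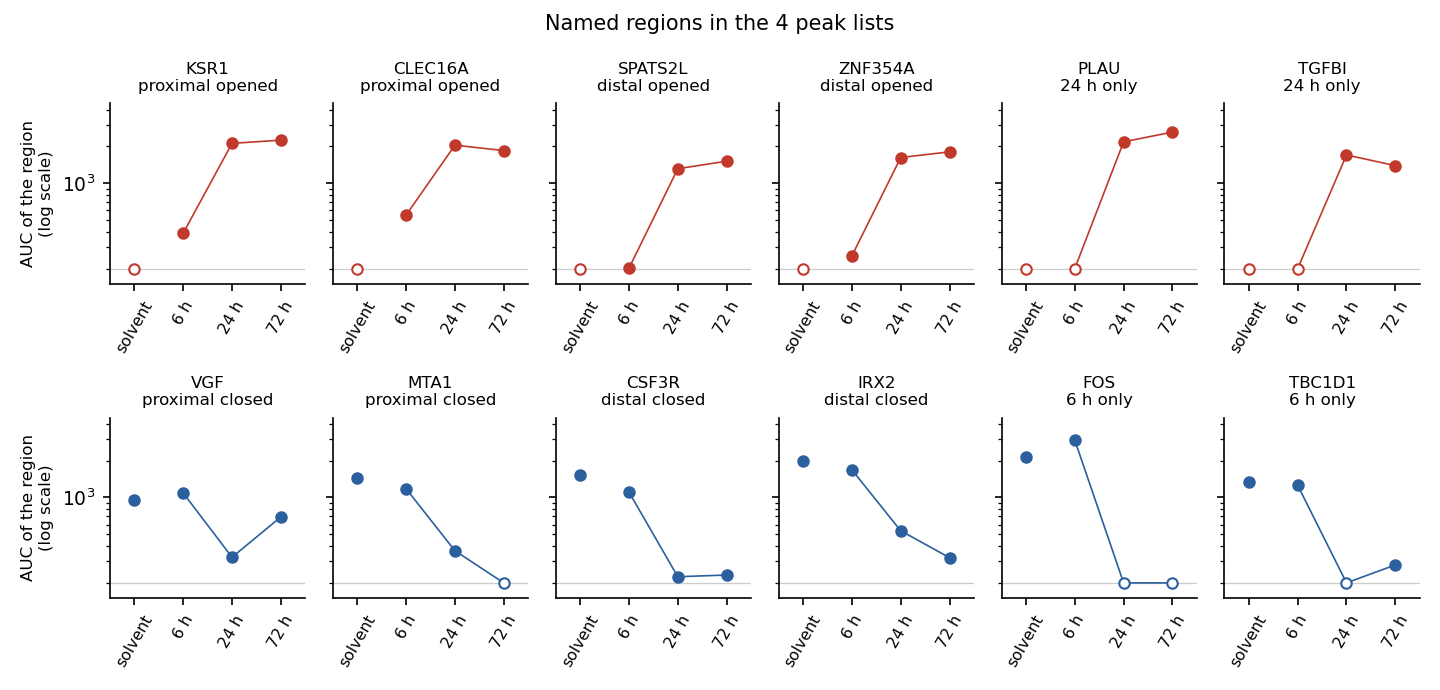
AUC (y, log scale, as deposited) of 12 named regions in the solvent, 6 h, 24 h and 72 h lists (x). Open circles at the authors' minimum of 200 stand for no peak. The 6 regions of the upper row have no peak in the solvent and reach 1392 or more at 72 h; the 6 of the lower row start between 957 and 2158.

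At the level of genes, all regions within 100 kb of the nearest protein-coding TSS were summed. Of 15432 genes with a larger sum of at least 1000, 529 were up 1.5-fold or more (3.43%) and 27 down (0.175%), and 61.3% of genes lay above 0 with a median of 0.04. Calls fell mostly on genes with little accessible chromatin, the 529 having a median larger sum of 2049 against 6639 over all genes tested. Of the 9752 genes with a larger sum of 5000 or more, 64 were up and none was down. Genes named here for the size of their gain or fall were picked after the values had been seen.

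TGFBI gained more AUC than any other gene, 2.36 times the gain of the next. From 6 h to 24 h the sum of its 32 regions rose from 74094 to 109681 (log2 0.61), after 34564 with solvent and before 119994 by 72 h. The covered sequence grew from 29959 to 45702 bp, while the AUC per covered base, 2.47 at 6 h, had a centred log2 of -3.72e-05. In the gene body, 5 peaks of the 6 h list were fused into a single peak at 24 h (chr5:136035866-136043293), which widened from 5090 to 7428 bp and rose from 7154 to 18996 (log2 1.45), or from 1.41 to 2.56 per covered base. This region had 2605 in the solvent and 19680 at 72 h. Just beyond the gene, chr5:136063526-136068156 rose from 6483 to 12679 (1.01), or from 1.595 to 2.74 per covered base, from 615 in the solvent. In all, 6 regions of TGFBI opened, none closed, 7 were at 24 h alone and 1 at 6 h alone, and the region over its TSS (chr5:136028067-136030067) stood at 0.19.

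Next in size of gain came genes of several kinds, CAMK1G, NAV2, SMYD3, NAV1, NFATC2 and TENM2 among them, none past 1.5-fold. PLAU, LAMB3 and LTBP1, genes of invasion, basement membrane and matrix, were picked from the same ranking, and none of them passed 1.5-fold. PLAU had 32438 at 6 h and 41119 at 24 h over 12 regions (log2 0.39), with 11186 bp covered at 6 h and 14602 at 24 h. Its promoter regions stood at 0.07 and 0.29, and a wide region over the end of the gene (chr10:73916345-73920538) at 0.56, with 2658 in the solvent, 8020 at 6 h and 11483 at 24 h. LAMB3, which encodes a chain of laminin 332, the laminin of epithelial basement membranes, had sums of 72248 and 82809 (0.24) with 29662 and 31416 bp covered. LTBP1, which tethers latent TGFβ to the matrix, stood at 0.22 over 38 regions, 7 of them at 24 h alone.

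Among genes with sums of 5000 or more, the largest folds belonged to KLHL6 and COL15A1. COL15A1, a collagen of basement membrane zones, rose from 5723 to 11243 (1.02), after 2218 with solvent and before 13596 by 72 h, and 6 of its 12 regions were at 24 h alone. Its covered sequence grew from 2799 to 4434 bp. KLHL6 rose by 1.02, EPB41L3, a membrane skeleton protein, by 1.00, PDZRN3, a ubiquitin ligase, by 0.82, and the growth factor IGF1 by 0.78. Per covered base the log2 was 0.39 for KLHL6, 0.35 for COL15A1, 0.23 for PDZRN3, 0.03 for IGF1 and -0.15 for EPB41L3. In the other direction none was called. The largest falls were those of MAPK15 (-0.58), the chitinase-like CHI3L1 (5265 and 3507, -0.54), FBXL16 (-0.53) and CRIPT (-0.51). KRT15, a basal keratin, came further down, with 6870 and 4918 (-0.44).

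FOS had the greatest loss of AUC of all genes, although not past 1.5-fold. The sum of its 18 regions was 58658 at 6 h and 45588 at 24 h (log2 -0.32), after 46078 with solvent and before 37963 by 72 h, with 18328 bp covered at 6 h and 15220 at 24 h. Scaled to the 6 h list on shared proximal regions, the sums were 62543, 58658, 46978 and 42463, the widest gap lying between 6 h and 24 h. Of its 16 shared regions 3 were above 0. The region over the gene (chr14:75276843-75282034) had 16395 and 12890 (-0.30). FRMD8 came next (-0.26, with 59572 and 48245), a direction that turned when regions were given to the nearest gene of any kind (0.14) or kept within 3 kb of its TSS (0.10), then GSE1 (-0.12) and the homeobox gene IRX4 (-0.21).

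Distal regions were then counted in place of AUC. Of 12235 genes with a distal region, 2755 had more opened than closed and 240 had more closed. Opened counts 2-fold shared regions and regions at 24 h alone with an AUC of at least 400. Closed counts the same for falls and for regions at 6 h alone. In all, 4462 distal regions were counted as opened and 452 as closed. The opened were 2533 of the 64413 distal shared regions and 1929 of the 11138 distal regions at 24 h alone. The closed were 231 of the distal shared regions and 221 of the 2902 distal regions at 6 h alone. At 9 each, ZNF462 and the adhesion receptor TENM3 led, followed at 8 by ATP10B, the IGF-binding IGFBP7, the transcription factor RUNX1 and the MAP kinase phosphatase DUSP10. These genes held 41, 78, 30, 45, 78 and 79 distal regions, in that order. The counts were not scaled to the number of distal regions, so a gene with many could rank high for that alone. UBE2V2, the cadherin CDH4, the ephrin receptor EPHA4 and SEMA5A had 7. Sums over all their regions moved less, with TENM3 at 0.01 and RUNX1 at 0.14. At the other end, CTNNA1, the α-catenin that joins cadherins to actin, had 3 more closed than opened, and SCNN1B, EMP2, ACTB, NCOA7, AHR, KCTD1, MACF1, TFAP2A and TNIK had 2.

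In the pathway itself LDLRAD4 alone was called, where 3.43% of all genes tested were up and 0.175% down. Among 15 ligands, receptors and binding proteins of TGFβ, none was called and 10 were above 0. Their median was 0.08, against 0.04 over all genes tested. TGFB1 was highest (0.42, a single region of 1056 and 1372), and TGFBR2, the type II receptor, was lowest (-0.16). Of the 14 SMADs and their feedback genes, LDLRAD4, which keeps SMAD2 and SMAD3 from the receptor, was up, from 8618 to 12639 (log2 0.60). Around it, SMAD3 (-0.01), SMAD7 (0.06), SKIL (0.0021) and SMAD4 (-0.09) were close to 0. No member of the ID and BMP group was called (median 0.13, 12 of 16 above 0), with FST, the activin trap follistatin, at 0.32.

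Matrix genes as groups lay above the median of all genes. Of 22 matrix glycoproteins and proteoglycans measured, 17 were above 0, with a median of 0.18, and TGFBI alone was called. FN1, fibronectin, stood at 0.39 (13948 and 17691), the fibrillin FBN1 at 0.35 and periostin (POSTN) at 0.41. Of 23 collagens and collagen enzymes, 21 were above 0 (median 0.14), and COL6A2 (0.73) and COL3A1 (0.64) were up. COL1A2 (0.54), COL6A1 (0.52) and COL5A1 (0.36) missed the limit. Among 10 laminins 7 were above 0 (median 0.16), and LAMA3, another chain of laminin 332, was at 0.19. Proteases and their inhibitors had a median of 0.11 with 16 of 20 above 0, ADAMTS6 (0.43) leading. Over all genes tested 61.3% were above 0. The AUC per covered base gave the matrix, collagen and laminin groups medians of 0.08, 0.04 and 0.05, against 0.03 over all genes tested.

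CDH11, a mesenchymal cadherin, was up from 4179 to 6667 (0.72), N-cadherin (CDH2) stood at 0.40 (10621 and 13558) and E-cadherin (CDH1) at 0.06. The median of 10 cadherins and catenins was 0.08. Keratins had a median of -0.05 with 4 of 13 above 0. Desmosomal genes had a median of -0.03 with 4 of 12 above 0, and tight junction and polarity genes -0.01 with 8 of 16, and both medians were 0.03 with the AUC per covered base. Of 26 actin and contractile genes MYO7B was up (0.72) and the median was 0.06. TAGLN, a marker of smooth muscle, was at 0.51 with a single region. Integrins had a median of 0.05.

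Of 12 transcription factors of EMT none was called, and the median was 0.04 with 7 above 0 (-0.02 per covered base). PRRX1 was at 0.52, SNAI2 at 0.29 (17228 and 20472), ZEB1 at 0.21 and SNAI1 at 0.07, while TWIST1 was at -0.02. Of 16 epithelial factors 3 were above 0, with a median of -0.04 that turned to 0.04 per covered base. OVOL2, a repressor of ZEB genes, was down, from 2866 to 1698 (-0.71), with a region in its intron listed in the solvent (638) and at 6 h (680) and not later. OVOL1 stood at -0.25, the splicing factor ESRP1 at -0.17 and GRHL2 at -0.10. AP-1 subunits had a median of 0.01 with 9 of 14 above 0 (-0.02 per covered base). Below it lay FOS, FOSB (-0.31), JUND (-0.19) and JUN (-0.08), with JUNB at 0.04 and FOSL1 at -0.02. RUNX3 (0.43) and ETS1 (0.26) were the highest of 20 RUNX, GATA, ETS and C/EBP factors, and GATA3 (-0.18) the lowest.

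Signalling groups around the pathway lay on both sides of the median of all genes. The ERK feedback genes had a median of -0.02 with 4 of 13 above 0 (0.0080 per covered base), and DUSP6 stood at -0.15. Of 18 epithelial cytokines IL33 (0.75, 2347 and 3819) and IL32 (0.80, a single region) were up, and the median was 0.11 with 12 above 0. WNT5A (0.40) and its receptor ROR2 (0.44) were the highest of 27 WNT genes (median 0.06, 21 above 0). Of 11 genes of epidermal differentiation measured, TGM1, the transglutaminase of the cornified envelope, was down, from 3866 to 2403 (-0.64). Ribosomal protein genes, taken as a reference, ranged from -0.28 to 0.12 with 8 of 18 above 0. Over all the groups 10 genes were called, to be read beside the 3.43% of all 15432 genes tested that were up and the 0.175% down. Of the 10 genes called in these groups, the log2 of the AUC per covered base was 0.52 for COL6A2, 0.46 for IL32, 0.39 for CDH11, 0.29 for LDLRAD4, -0.22 for OVOL2 and -0.55 for TGM1, and it was close to 0 or of the opposite sign for COL3A1 (0.06), MYO7B (-0.05) and IL33 (-0.26), as for TGFBI. With the AUC scaled within 50 bins, COL6A2 (0.57), CDH11 (0.57), COL3A1 (0.51) and LDLRAD4 (0.46) no longer passed the limit, and COL6A2 stood at 0.38 with the nearest gene of any kind.

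**Figure D3:**
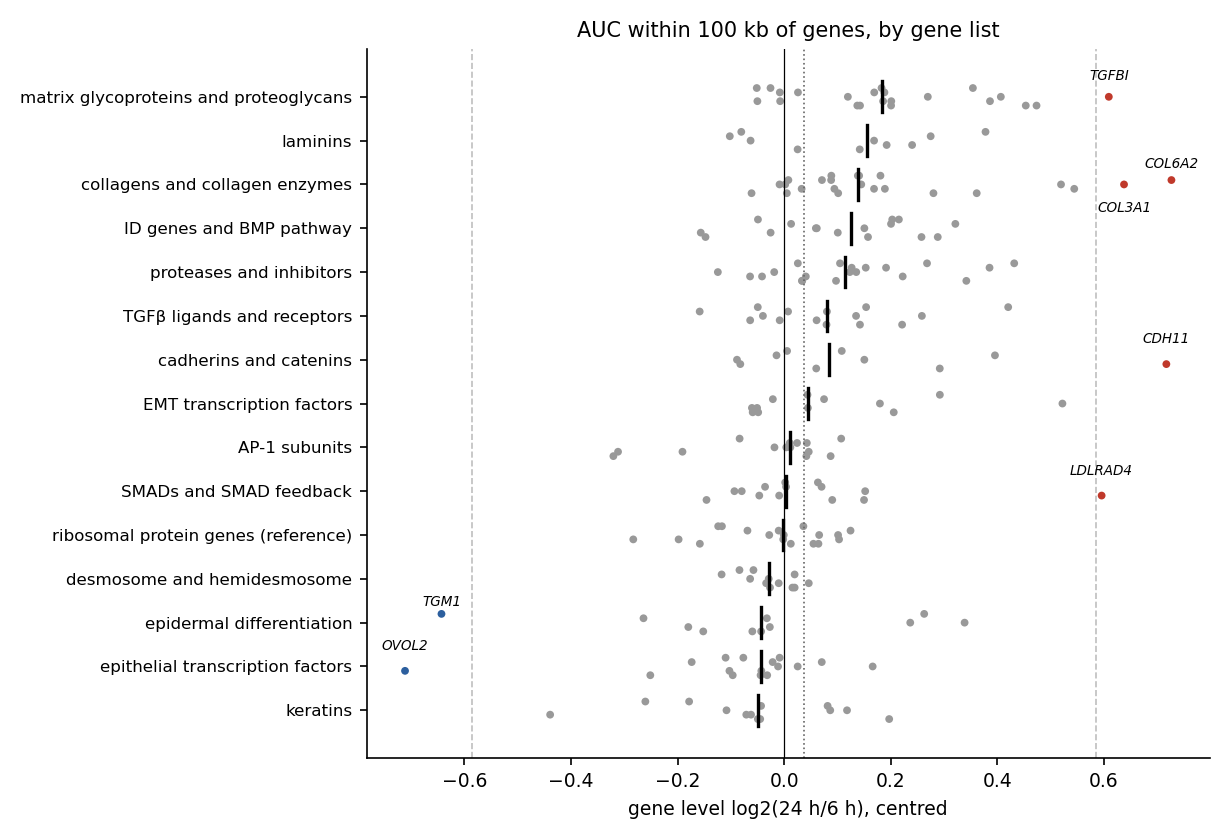
Centred gene level log2(24 h/6 h) of the genes of 15 groups (points) with the median of each group (bars). The dotted line is the median of all 15432 genes tested (0.04), the dashed lines 1.5-fold, and colours mark called genes. Matrix, laminin and collagen medians lie between 0.14 and 0.18, keratin and epithelial factor medians at -0.05 and -0.04, the latter turning to 0.04 per covered base.

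Motif letters were then counted over all opened and closed regions. Within 100 bases of a distal summit, the AP-1 letters were in 41.8% of opened regions (39.9 to 43.7), 38.3% of steady, 18.2% of closed (13.7 to 23.7) and 37.6% of all distal regions. The excess in opened regions over the rest did not hold among stronger regions. With a larger AUC of at least 1000, the AP-1 letters were in 38.7% of distal opened and 6.82% of distal closed regions. Over all distal shared regions of that strength the share was 43.6%. At proximal summits they were in 41.6% of opened, 21.3% of steady and 11.4% of closed. The E-box letters ran the other way, in 12.8% of distal opened regions (11.5 to 14.1), 18.4% of steady and 26.0% of closed (20.7 to 32.0), and in 11.6%, 18.4% and 39.4% at proximal summits. Regions in a single list shared the pattern in part. AP-1 letters were in 37.6% of distal regions at 24 h alone, the same share as over all distal regions. They were in 21.3% of those at 6 h alone. E-box letters were in 14.9% and 22.6%. A match marks letters, not a bound factor.

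The SMAD palindrome was rare. It was in 0.553% of distal opened regions (14 of 2533), 0.285% of steady, and 0 of 231 closed, which allows a share of up to 1.30%. Over the whole region in place of the summit, the share was 0.869% of opened and 0.866% of closed regions. Of the named regions, 2 of 10 distal opened ones held it in the shorter window of the printed sequences, against 0.273% of all distal regions. RUNX letters were in 5.29% of distal opened, 3.14% of steady and 1.30% of closed regions, and TEAD letters in 6.99%, 5.11% and 3.90%. The C/EBP variant TTGCATAA was in 0.829% of opened and 4.76% of closed (11 of 231), a difference of -3.93 points that was 0.193 with a larger AUC of at least 1000.

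The same letters were followed along the step. Distal shared regions with a larger AUC of at least 1000 were cut into 10 classes of 2807 by log2(24 h/6 h). From the lowest class to the highest, AP-1 letters rose from 32.6% to 45.1%, RUNX from 2.96% to 5.13% and the SMAD palindrome from 1 region to 29, while E-box letters fell from 25.3% to 13.8% and the C/EBP variant from 2.32% to 0.677%. The AP-1 share was already 40.2% in the next lowest class and lay between 45.1% and 47.3% from the fifth class on. The SMAD palindrome was in 0.321% to 0.463% of regions in the classes from the fourth to the ninth and in 1.03% of the highest.

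The solvent and 72 h lists, which the comparison did not use, placed the step within the time course. Of the opened regions 99.4% were listed at 72 h and 10.7% in the solvent, against 95.5% and 81.4% of steady regions. The solvent list is shorter, at 86209 peaks. Among regions with a 6 h AUC under 400, 6.47% of the 2396 opened were in the solvent list and 27.6% of the 17960 steady. Of the 332 opened regions listed in both, the median centred log2(72 h/solvent) was 1.48 and 95.8% were above 0, while steady regions had a median of 0.15. Of the closed regions 89.8% were in the solvent list and 66.7% at 72 h, and the 225 in both had a median of -0.82 with 15.6% above 0. Among regions with a 24 h AUC under 400, 86.9% of the 282 closed were in the solvent list and 34.0% of the 14791 steady. Of the regions at 24 h alone, 69.0% were listed at 72 h and 1.19% in the solvent; of those at 6 h alone, 22.8% and 25.4%, so that most of the latter appeared in a single list of the 4.

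By class of the step, over shared regions with a larger AUC of at least 1000, the median log2(72 h/solvent) rose from -0.21 in the lowest to 1.28 in the highest of 10. The lowest 4 classes were below 0. In the highest class 99.2% of regions were above 0, and in the lowest 27.2%.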

How the data were processed

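MCF10A cells were treated in duplicate and profiled by Omni-ATAC. Per the labels and methods, the authors trimmed reads with Trimmomatic 0.38, aligned them to GRCh38 with Bowtie2 2.4.5, removed duplicates with Picard, kept reads of high mapping quality outside mitochondrial DNA with SAMtools 1.4.1, removed blacklisted sites and called peaks with Genrich 0.5 on both replicates of a condition together. Column 7 of the deposited lists is the AUC of a peak, a score that the authors did not scale between lists and that starts just over 200. The deposited −log10 p-values served as an alternative measure. No counts were used here, so depth, and with it the precision of single values, is unknown.

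Samples were grouped by the labels. Peaks were merged at 1 bp or more, and AUCs were summed and centred as described in the report, using GENCODE 44, pysam 0.24.0, samtools 1.23.1, pandas 2.3.3, numpy 2.4.6, scipy 1.17.1 and matplotlib 3.10.9 under Python 3.11.15. Opened and closed regions passed 2-fold, called genes 1.5-fold. The code that makes the region calls was checked on simulated peak lists. The named regions are the 10 with the largest and the 10 with the smallest ratio near a TSS and beyond 3 kb, among those with an AUC of at least 1000 in either list, the 8 strongest in each list alone, the genes with the largest net number of distal regions, and the genes of fixed groups. Members and gene groups were chosen with earlier results of these data known. With a single pooled list a condition no statistical test was run, and intervals are 95% Wilson intervals. Some items are not reported here.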

Additional observations from a re-analysis of the deposited data

How the results depend on the processing

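No paired analysis was possible because the lists pool both replicates of a condition, and leaving out a replicate was not possible for the same reason. Of 176 values under alternatives, 91 stayed close to the reported value, 84 moved and 1 turned the sign of a called difference. In all, 9 had the opposite sign: the C/EBP difference given below, FRMD8 (0.14 with the nearest gene of any kind, 0.10 within 3 kb), FOSL2 (from 0.01 to -0.12 with genes of any kind, -0.02 within 3 kb and -0.10 by number of peaks), RUNX1 (-0.01 within 3 kb), IRX4 (0.19 by number of peaks) and the median of all genes (-0.03 within 3 kb). The 3129 opened and 363 closed regions became 11365 and 2193 at 1.5-fold, 646 and 70 with a larger AUC of at least 1000, 920 and 163 with the AUC per covered base, 1539 and 902 when centred in 50 bins of mean AUC, and 0 and 0 with the −log10 p-values in place of the AUC. Regions at 24 h alone numbered 2354 and at 6 h alone 338 with an AUC of at least 400, and 7930 and 8700 with lists of equal length. The distal gap of 0.13 was 0.054 when centred in bins. Genes up and down numbered 1844 and 113 over genes of any kind, 1602 and 387 by number of peaks, and 327 and 69 centred in bins, and 152 and 37 within 3 kb. The E-box share of opened minus closed distal regions, -13.2 points, became -21.6 over the whole region and -27.9 with a larger AUC of at least 1000. The C/EBP variant difference of -3.93 points turned to 0.193 at that limit. The median log2(72 h/solvent) of closed regions, -0.82, was -1.77 at that limit, an alternative chosen after seeing the data, as were the 500 bp spacing and the use of 200 for regions not listed. The causes of these shifts were not tested. Weak peaks limit what can be read from single regions, since without counts their error is unknown.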

Other observations

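Several strong regions, chosen after their values had been seen, stood apart from the rest without passing 2-fold. At the FRMD8 locus the loss lay over non-coding exons and intergenic chromatin from 24551 to 54665 bp from the nearest coding start, that of FRMD8, where chr11:65443094-65450079 had 12927 at 6 h and 9158 at 24 h (log2 -0.45), with 13558 in solvent and 15511 by 72 h. Regions nearest to MMRN2 (5487 and 3233, -0.72) and RCC1, the exchange factor of RAN (7265 and 4882, -0.53), were lower at 24 h as well. Near TFAP2C, an AP-2 factor of epithelium, chr20:56808467-56810408 narrowed from 1942 to 579 bp as its AUC went from 2424 to 1293 (-0.86). Near HS6ST1, a heparan sulfate sulfotransferase with a region at 6 h alone as well, another region had 2839 and 5159 (0.90).

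Chromosomes differed in how much they opened. The share of shared regions that opened was 1.49% on chromosome 19, 4.18% on chromosome 13, 4.03% on chromosome 4 and 4.02% on chromosome 5. Regions at 24 h alone made up 6.85% of regions on chromosome 19 and 15.1% on chromosome X. No measure of gene density was set beside these values. Among groups not described above, the glucocorticoid receptor and its targets (median 0.03, SERPINA3 at 0.40), YAP, TEAD and their targets (0.03), immediate early genes other than AP-1 (0.03, or -0.0068 per covered base), hypoxia and glycolysis genes (0.02, or -0.03 per covered base) and cholesterol and fatty acid genes (0.0096) lay near the median of all genes, and semaphorins and their receptors had a median of 0.06 with SEMA7A at 0.35.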
